A study of Mus musculus with 9 samples.

Results

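Polyamines are small organic cations that bind nucleic acids and that dividing cells need for growth. The 10 genes described here make, break down or control them: Odc1, Amd1, Srm and Sms in synthesis, Sat1, Smox and Paox in breakdown, and Azin1, Oaz1 and Oaz2 in the control of ornithine decarboxylase. Every probe set annotated to these symbols alone was taken, which gave 14 of the 45101 probe sets on the array, for 7 of the 10 genes. Amd1 and Paox had no listed probe set and were not analysed here. The 3 probe sets that name Sms also name its pseudogene Sms-ps, so none was assigned to Sms.

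The cells were preSC, preneoplastic neuroendocrine cells from the lungs of mice with conditional Rb, p53 and p130 alleles, given Cre by adenovirus, on a mixed C57BL/6 and 129/Sv background. The groups were preSC transduced with a retrovirus for L-Myc (2 arrays, from cells described as transformed), for C-Myc (2 arrays) or for N-Myc (2 arrays), and preSC themselves (3 arrays). All 9 arrays therefore carried the Rb/p53/p130 genotype, and all cells were grown in culture without stroma. The promoter driving each MYC gene, the number of clones and an empty-vector control are not given in the labels used here.

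Each value is a log2 expression level from an Affymetrix mouse array, on which 1 unit is a doubling, and levels were not compared between probe sets. Between groups, limma was fitted to the 29140 probe sets that rose above their array's 40th percentile on at least 2 arrays, with p-values adjusted by Benjamini-Hochberg over all of them and called at 0.05. In what follows, "higher", "rose", "lower" or "fell" as a call means an adjusted p under that threshold. The design text calls the arrays biological replicates, but the N-Myc arrays differed by more than 2-fold at 13 probe sets and preSC 1 and 2 at 19, against 2900 for the C-Myc arrays, so the p-values measure the spread between these arrays whatever its source.

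Each transduced MYC gene was higher in the cells labelled with it on at least 1 of its probe sets: the Mycl probe set 1422087_at averaged 12.27 in L-Myc cells and 5.58 in preSC, and Myc 1424942_a_at averaged 10.95 in C-Myc cells and 7.15 in preSC. The Mycn probe set 1425922_a_at averaged 8.76 in N-Myc cells and 6.21 in preSC. Myc 1424942_a_at was also high in N-Myc cells, at 11.68, and a brighter Mycn probe set, 1425923_at, was high in all transduced groups, averaging 13.12 in L-Myc, 13.31 in C-Myc and 11.35 in N-Myc cells, against 6.68 in preSC. Other probe sets did not follow the labels. Mycn 1417155_at averaged 5.55 in N-Myc cells and 8.25 in preSC, Mycl 1434777_at averaged 8.67 in L-Myc cells and 8.90 in preSC, and Mycl 1422087_at and 1422088_at were also called higher than preSC in C-Myc cells (2.02 and 1.91) and N-Myc cells (1.53 and 1.72). Of 10 neuroendocrine markers, the 9 with a probe set (Chga, Chgb, Syp, Insm1, Ncam1, Uchl1, Scg2, Scg3 and Stx1a) stood above the 40th percentile on all 9 arrays, with summed log2 levels of 91.8 to 95.1 on transduced arrays and 97.5 to 98.0 on preSC arrays. Of the 5 endothelial markers, 4 lay below that percentile on every array. Of the 7 club, alveolar and ciliated markers 3 did, and the list's sum was 37.8 to 39.7 in L-Myc, 37.2 to 42.4 in C-Myc and 42.5 to 43.2 in N-Myc cells, against 38.1 to 40.8 in preSC, with Sftpc averaging 7.10, 8.42 and 10.84, against 7.58. The fibroblast sum was 35.8 to 37.6 in L-Myc, 34.3 to 37.7 in C-Myc and 34.3 to 34.8 in N-Myc cells, against 36.5 to 37.8 in preSC, with Dcn at 5.58 in N-Myc cells and 7.59 in preSC. The leukocyte sum was 25.4 to 29.8, 25.4 to 31.4 and 28.5 to 28.9, against 23.7 to 28.1 in preSC, with Lyz2 at 9.89 in N-Myc cells and 8.34 in preSC.

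Technical features also moved with the groups. The 18S rRNA control probe sets read 8.03 to 9.55 on the 6 transduced arrays and 12.58 to 14.07 on the 3 preSC arrays. The 5′ probe sets of the Dap control RNA read 9.53 to 9.97 and 10.15 to 10.71 on transduced arrays, against 6.75 to 7.73 and 7.14 to 8.41 on preSC arrays, whereas its 3′ probe sets overlapped, at 11.21 to 11.51 and 11.40 to 11.79 against 10.15 to 11.23 and 10.36 to 11.43. The labels give polyA RNA for L-Myc cells and preSC but total RNA for C-Myc and N-Myc cells, although all describe a total RNA extraction, so the C-Myc and N-Myc differences from preSC cannot be told apart from that label, whereas L-Myc against preSC lies within it. The part of the marker genes and of the 18S and Dap signals in the results was not tested.

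In the pathway, ornithine decarboxylase (Odc1) turns ornithine into putrescine, and spermidine synthase (Srm) and spermine synthase (Sms) lengthen it with aminopropyl groups that come from S-adenosylmethionine through the decarboxylase Amd1. Sat1 acetylates spermidine and spermine, Paox oxidises the acetylated forms and Smox oxidises spermine directly. The antizymes Oaz1 and Oaz2 bind ornithine decarboxylase and hand it to the proteasome, and Azin1, a relative of ornithine decarboxylase without its activity, binds antizyme and keeps it away. Odc1 is a textbook target of MYC, which binds DNA with MAX at the E-box CACGTG. Its best-known E-boxes lie in the first intron, outside the promoter windows used here.

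The promoter sequences of Odc1 and Oaz1 are shown because of the levels of these genes and a shared motif. On the probe sets assigned to them, all 6 transduced arrays lay above preSC for Odc1 and below it for Oaz1. Both promoter sequences carry the related motif CACGCG, or its other strand CGCGTG, which capitals mark. They come from RefSeq (GRCm38.p6), plus strand, and stop at the base before the earliest annotated start, at chr12:17544623-17544807 for Odc1 and chr10:80826406-80826655 for Oaz1.
Odc1: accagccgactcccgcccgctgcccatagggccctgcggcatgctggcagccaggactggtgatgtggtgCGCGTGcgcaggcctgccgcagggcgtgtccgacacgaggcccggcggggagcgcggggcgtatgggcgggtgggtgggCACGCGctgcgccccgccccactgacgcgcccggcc
Oaz1: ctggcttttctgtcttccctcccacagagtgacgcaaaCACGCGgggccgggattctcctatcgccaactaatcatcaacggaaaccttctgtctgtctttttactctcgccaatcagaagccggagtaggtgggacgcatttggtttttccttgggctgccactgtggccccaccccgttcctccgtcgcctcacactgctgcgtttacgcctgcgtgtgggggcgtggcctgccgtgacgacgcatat
Neither stretch holds CACGTG. Over both strands, CACGTG occurred in 7.15% and CACGCG or CGCGTG in 9.27% of 32851 RefSeq promoter windows, each of 250 bases before to 50 after a start. 8 of the 10 genes had such a window, Srm and Azin1 being the exceptions. CACGTG was found for 1 of the 8 (Sms), and CACGCG or CGCGTG for 3 (Odc1, Oaz1 and Sms). The related motif was chosen after the sequences were read, and a match of letters is not a binding site.

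Odc1, the rate-limiting enzyme of synthesis, was higher after transduction with each of the MYC genes, on 2 of its 3 probe sets in L-Myc cells and on all 3 in C-Myc and N-Myc cells. On its brightest probe set, 1438761_a_at, Odc1 read 11.49 and 11.75 in L-Myc cells, 12.28 and 11.72 in C-Myc cells and 12.15 and 12.14 in N-Myc cells, against 11.02, 10.94 and 10.84 in preSC. The lowest transduced array lay above the highest preSC array. Against preSC, the log2 difference was 0.69 ± 0.19 (SE) in L-Myc cells, a 1.61-fold level (limma, adjusted p = 0.0352). It was 1.07 ± 0.19 in C-Myc cells, or 2.10-fold (limma, adjusted p = 0.00562), and 1.21 ± 0.19 in N-Myc cells, or 2.32-fold (limma, adjusted p = 0.00323).

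The second Odc1 probe set, 1437711_x_at, read 11.12 and 11.58 in L-Myc cells, 12.17 and 11.54 in C-Myc cells and 11.78 and 11.89 in N-Myc cells, against 10.57, 10.38 and 10.52 in preSC. It was called in each comparison with preSC, at 0.86 ± 0.22, 1.37 ± 0.22 and 1.34 ± 0.22 in the L-Myc, C-Myc and N-Myc cells (limma, adjusted p = 0.0287, 0.00412 and 0.00400). The dimmest, 1427364_a_at, read 8.30 and 8.82 in L-Myc cells, 9.64 and 8.74 in C-Myc cells and 9.40 and 9.48 in N-Myc cells, against 8.20, 8.07 and 8.25 in preSC. Both L-Myc arrays stood above preSC, L-Myc 1 only just so. The L-Myc difference of 0.39 ± 0.27 was not called (limma, adjusted p = 0.344), whereas those of 1.02 ± 0.27 in C-Myc and 1.27 ± 0.27 in N-Myc cells were (limma, adjusted p = 0.0264 and 0.0105). On all 3 Odc1 probe sets every transduced array lay above every preSC array, a pattern shown by 19.7% of all probe sets tested.

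The L-Myc calls for Odc1 depended on which arrays were included. With each array left out in turn, 1438761_a_at was called in L-Myc cells only when either C-Myc array was the one dropped (2 of 9 fits, difference 0.56 to 0.82, adjusted p up to 0.180), and 1437711_x_at when either C-Myc array or L-Myc 1 was (3 of 9, 0.63 to 1.09, adjusted p up to 0.166). The C-Myc and N-Myc calls on both of these probe sets were made in 9 of 9 such fits. On 1427364_a_at the C-Myc call was lost without C-Myc 1, preSC 1 or preSC 2, with a difference of 0.57 without C-Myc 1, and the N-Myc call was lost without either N-Myc array.

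**Figure D1:**
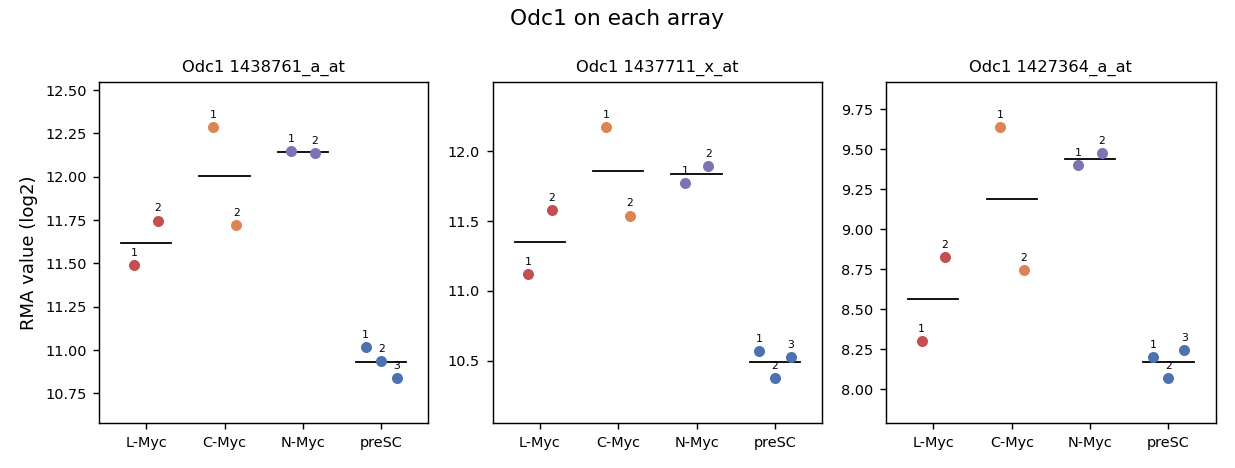
Level of Odc1 (log2, y axis) on each array for its 3 probe sets, by group on the x axis, with replicate numbers beside the points and a line at each group mean; the y axes differ and do not start at 0. In each panel the 6 transduced arrays lie above the 3 preSC arrays, with the L-Myc mean the lowest of the transduced groups.

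The order of the Odc1 means was N-Myc, C-Myc, L-Myc and preSC on 1438761_a_at, and no neighbouring pair of MYC groups was called different. Between L-Myc and C-Myc cells the difference was -0.38 (95% interval -0.86 to 0.09, limma, adjusted p = 0.858), and between L-Myc and N-Myc cells -0.52 (-0.997 to -0.05, limma, adjusted p = 0.233). Between C-Myc and N-Myc cells it was -0.14 (-0.61 to 0.34, limma, adjusted p = 0.949). The intervals are not adjusted for the number of probe sets, and they leave room for differences between MYC genes about as large as the L-Myc difference from preSC.

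Srm, which makes spermidine from putrescine, was not called, and its arrays disagreed within groups. Its only probe set, 1421260_a_at, read 12.31 and 9.87 in L-Myc cells, 12.55 and 10.05 in C-Myc cells and 12.41 and 12.08 in N-Myc cells, against 11.06, 10.56 and 8.55 in preSC. Replicates of the same group lay 2.44 apart in L-Myc cells, 2.50 in C-Myc cells and 2.50 in preSC, so that L-Myc 2 and C-Myc 2 fell below preSC 1. The low arrays were L-Myc 2, C-Myc 2 and preSC 3, and neither N-Myc array was low. The fit counted this split as spread between replicates, so it enters the SE below, and its cause was not tested. The differences from preSC were 1.03 ± 1.03 in L-Myc cells (interval -1.35 to 3.42), 1.24 ± 1.03 in C-Myc cells (-1.15 to 3.63) and 2.19 ± 1.03 in N-Myc cells (-0.20 to 4.58), with limma adjusted p of 0.515, 0.396 and 0.135. Both N-Myc arrays were above all preSC arrays, and in a fit to N-Myc cells and preSC alone the same difference was called (limma, adjusted p = 0.0461).

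No probe set of the breakdown enzymes was called. Sat1 1420502_at, the acetyltransferase that opens the way back from spermine and spermidine, read 8.88 and 8.32 in L-Myc cells, 8.40 and 8.51 in C-Myc cells and 8.07 and 8.43 in N-Myc cells, against 7.95, 8.20 and 8.29 in preSC. The differences of 0.45, 0.31 and 0.10 in the L-Myc, C-Myc and N-Myc cells were not called (limma, adjusted p = 0.165, 0.302 and 0.726). The L-Myc and C-Myc arrays all lay above preSC and the N-Myc arrays overlapped it. The share of all probe sets on which both arrays of a group clear preSC is not given here. The same holds where such a separation is described for Srm and Smox.

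Smox 1424268_at, spermine oxidase, read 7.37 and 7.19 in L-Myc cells, 7.43 and 6.93 in C-Myc cells and 7.57 and 7.47 in N-Myc cells, against 6.79, 7.17 and 7.05 in preSC. Both N-Myc arrays were above preSC, by 0.51 ± 0.19 (limma, adjusted p = 0.0729), a difference that was called under quantile normalization (0.58, adjusted p = 0.0449), with arrays centred (0.58, adjusted p = 0.0436) and in a fit to those groups alone (adjusted p = 0.0388). The L-Myc and C-Myc differences were 0.27 and 0.17 (limma, adjusted p = 0.351 and 0.529). The other Smox probe set, 1446509_at, lay below the 40th percentile on all arrays, at 3.47 to 4.23, and was not tested.

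Of the regulators, the antizyme Oaz1 was lower on every transduced array on its only assigned probe set. A probe set that also names Oaz1-ps overlapped and was not called, as given below. Oaz1 1436292_a_at read 13.29 and 13.14 in L-Myc cells, 12.98 and 13.16 in C-Myc cells and 13.00 and 13.10 in N-Myc cells, against 13.58, 13.46 and 13.47 in preSC. The transduced and preSC arrays did not overlap, as for 18.7% of all probe sets in this direction. The differences were -0.44 ± 0.13 in C-Myc and -0.45 ± 0.13 in N-Myc cells, or 0.740-fold and 0.730-fold (limma, adjusted p = 0.0401 and 0.0308), and -0.29 ± 0.13 in L-Myc cells, which was not called (limma, adjusted p = 0.158). Both calls were lost when arrays were centred on the median of the probe sets tested (-0.38 and -0.39, adjusted p = 0.0632 and 0.0540), and with 1 array left out the C-Myc call was made only without C-Myc 2 (1 of 9 fits, differences of -0.52 to -0.35). The N-Myc call was made when an L-Myc or C-Myc array was dropped (4 of 9, -0.50 to -0.41) and lost when an N-Myc or preSC array was.

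The probe sets of Azin1, the antizyme inhibitor, disagreed. On the brightest, 1450714_at, Azin1 read 11.43 and 11.00 in L-Myc cells, 10.91 and 10.81 in C-Myc cells and 10.84 and 10.99 in N-Myc cells, against 11.89, 11.92 and 11.44 in preSC. All transduced arrays were lower, narrowly so for L-Myc 1 against preSC 3. The differences were -0.89 ± 0.20 in C-Myc and -0.83 ± 0.20 in N-Myc cells (limma, adjusted p = 0.0146 and 0.0162), and -0.54 ± 0.20 in L-Myc cells, which was not called (limma, adjusted p = 0.0967). The C-Myc call was lost without preSC 1 or preSC 2 (adjusted p up to 0.0520), and the N-Myc call without either of these or either N-Myc array (adjusted p up to 0.110).

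Azin1 1422702_at read 9.99 and 9.79 in L-Myc cells, 9.49 and 9.71 in C-Myc cells and 9.39 and 9.61 in N-Myc cells, against 9.58, 9.59 and 9.57 in preSC, and no difference was called. Azin1 1430984_at ran the other way: 7.30 and 7.28 in L-Myc cells, 6.36 and 7.07 in C-Myc cells and 6.46 and 7.19 in N-Myc cells, against 4.95, 4.62 and 4.28 in preSC. This probe set was above the 40th percentile on no preSC array and entered the test through the transduced arrays, so it had to differ. Its log2 differences of 2.67, 2.10 and 2.21 (limma, adjusted p = 0.00149, 0.00288 and 0.00221) are given as a description only. The files do not say which Azin1 transcripts each probe set reads.

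Oaz2, the second antizyme, also gave different answers by probe set, with wide gaps between the C-Myc arrays. Oaz2 1426763_at read 10.72 and 10.35 in L-Myc cells, 9.23 and 10.41 in C-Myc cells and 9.39 and 9.45 in N-Myc cells, against 10.55, 10.60 and 10.43 in preSC. C-Myc 1 stood with the N-Myc arrays and C-Myc 2 with the L-Myc and preSC arrays. The level fell by 1.11 ± 0.31 in N-Myc cells (limma, adjusted p = 0.0284), and the differences of -0.71 in C-Myc and 0.01 in L-Myc cells were not called (limma, adjusted p = 0.125 and 0.991).

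Oaz2 1426764_at read 10.53 and 10.29 in L-Myc cells, 8.91 and 10.30 in C-Myc cells and 9.23 and 9.31 in N-Myc cells, against 9.34, 9.03 and 8.998 in preSC. Here the L-Myc arrays and C-Myc 2 were high and preSC was low, and the L-Myc difference of 1.29 ± 0.36 was called (limma, adjusted p = 0.0382), while those of 0.48 in C-Myc and 0.15 in N-Myc cells were not (limma, adjusted p = 0.343 and 0.772). With 1 array left out, the L-Myc call was made only without either C-Myc array (2 of 9 fits, adjusted p up to 0.149). The N-Myc call on 1426763_at was made when an L-Myc or C-Myc array was dropped (4 of 9) and lost when an N-Myc or preSC array was (adjusted p up to 0.139). Oaz2 1442541_at lay between 6.60 and 7.15 on all arrays and was not called.

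**Figure D2:**
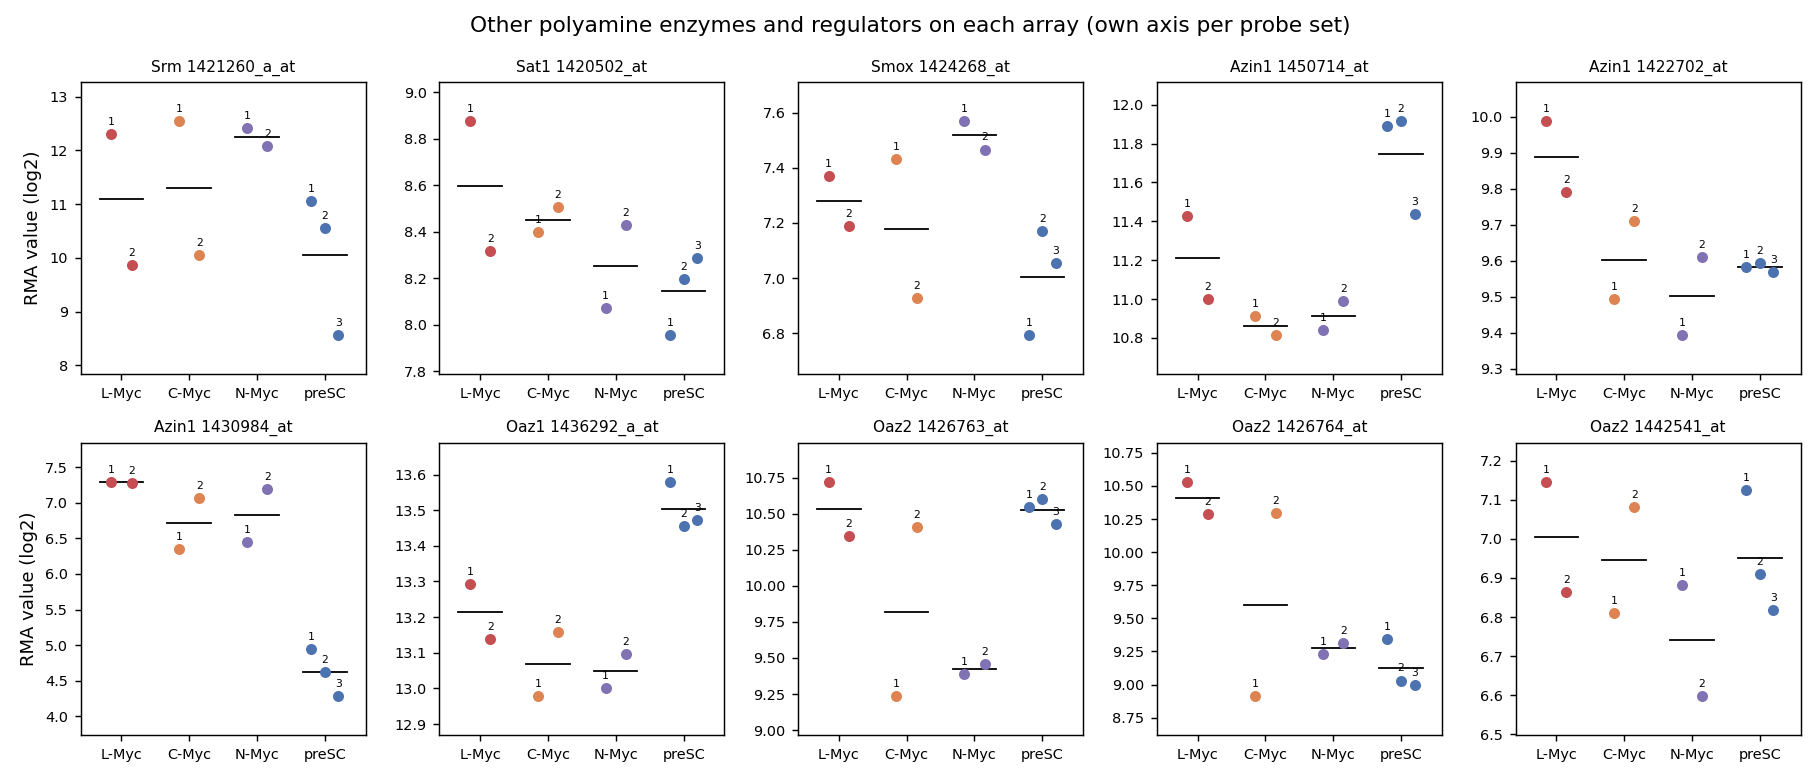
Level (log2, y axis) on each array of the tested probe sets of Srm, Sat1, Smox, Azin1, Oaz1 and Oaz2, by group on the x axis, with a line at each group mean; the y axes differ and do not start at 0. Srm arrays of the same group lie up to 2.50 apart, Oaz1 is lower on every transduced array, and probe sets of Azin1 and of Oaz2 differ in direction.

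Over the 13 probe sets tested, 4 were called in L-Myc cells against preSC, all of them higher, while 22.0% of all probe sets were called in that comparison, 11.6% higher and 10.4% lower. In C-Myc cells 6 were called, 4 higher and 2 lower, beside 29.7% of all probe sets, 15.1% higher and 14.6% lower. In N-Myc cells 7 were called, 4 higher and 3 lower, beside 34.7%, with 17.3% higher and 17.4% lower. As shares of the 13 these are 30.8%, 46.2% and 53.8%. Without Azin1 1430984_at, which had to differ, 3, 5 and 6 of 12 were called, with 3 higher in each comparison. In C-Myc and N-Myc cells all of those higher calls were probe sets of Odc1, and in L-Myc cells they were of Odc1 and Oaz2. The median log2 difference over the 13 was 0.39 in L-Myc, 0.31 in C-Myc and 0.15 in N-Myc cells, beside -0.01, -0.01 and 0.00 over all probe sets. Without Azin1 1430984_at the medians were 0.35, 0.24 and 0.13. The 3 comparisons share the preSC arrays.

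**Figure D3:**
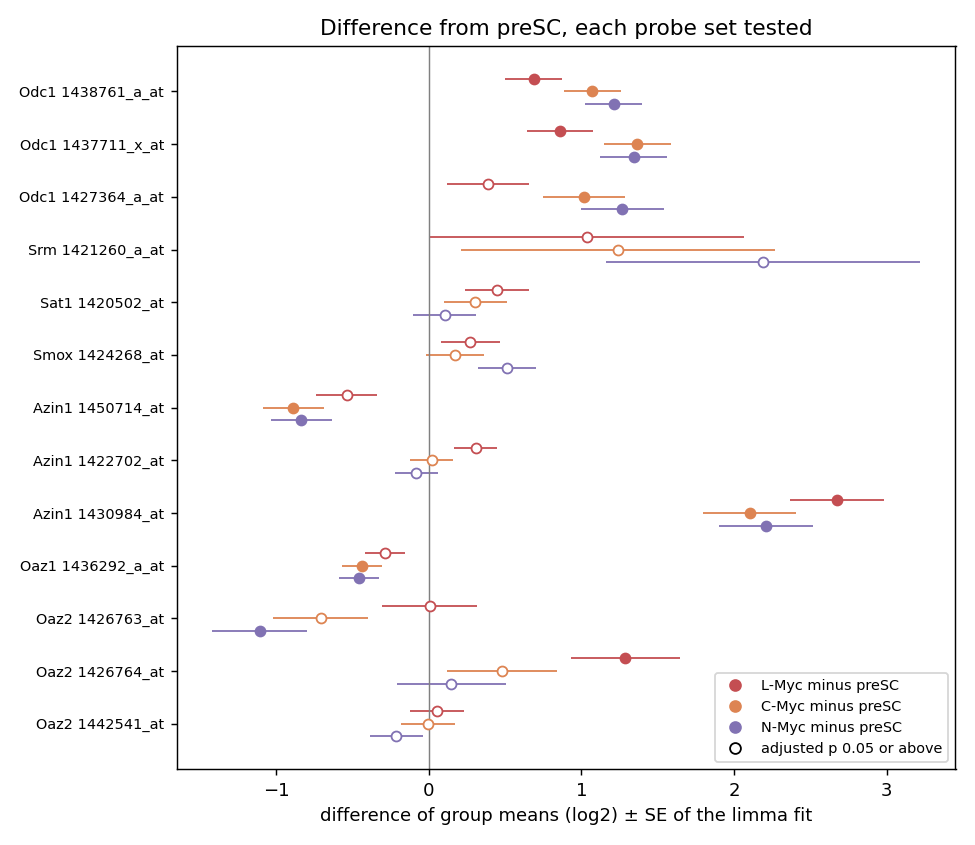
Log2 difference from preSC (x axis) with a bar of ± 1 SE of the limma fit for each tested probe set (rows), in the L-Myc, C-Myc and N-Myc cells; filled points are called at an adjusted p under 0.05 and open points are not. Odc1 lies right of 0 throughout, Oaz1 left of it, and the bars of Srm are the widest.

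Between the MYC groups no polyamine probe set was called. The RNA label differs between L-Myc cells and the C-Myc or N-Myc cells, so differences between them cannot be told apart from it. Of all 29140 probe sets, 0 were called between L-Myc and C-Myc cells (0% called, 1339 at an unadjusted p under 0.05), 0 between L-Myc and N-Myc cells (0%, 5449 unadjusted) and 1 between C-Myc and N-Myc cells (0.00343%, 1285 unadjusted). At an unadjusted p under 0.05, 5 of the 13 polyamine probe sets differed between L-Myc and N-Myc cells and 0 in the other comparisons. Among them, Oaz2 was higher in L-Myc than in N-Myc cells by 1.11 on 1426763_at (limma, adjusted p = 0.166) and by 1.14 on 1426764_at (limma, adjusted p = 0.195), and Odc1 1427364_a_at was lower by 0.88 (limma, adjusted p = 0.190). For all 3, leaving out either C-Myc array changed only the estimate of the spread, and whether they were called depended on it. The number of all probe sets called also varied with the array left out, as given below. Without C-Myc 2, the Oaz2 differences between L-Myc and C-Myc cells were 1.30 and 1.499, with C-Myc 1 as the lone C-Myc array. With all arrays they were 0.71 and 0.81 and were not called (limma, adjusted p = 0.858 for both).

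Genes around the pathway were taken from lists, with the brightest probe set of each gene and a fit to 12976 genes. In that fit 13.5% of genes were called in L-Myc cells against preSC, 5.44% higher and 8.03% lower. In C-Myc cells 23.5% were called, 9.91% higher and 13.6% lower, and in N-Myc cells 28.8%, 12.5% higher and 16.4% lower. Odc1 itself had an adjusted p of 0.0505 in L-Myc cells in this fit.

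The hypusine pathway, which spends spermidine to modify the translation factor eIF5A, had 4 genes, all tested: 1 was higher in L-Myc, 2 in C-Myc and 2 in N-Myc cells, and 0 were lower. Dohh, the hydroxylase that completes hypusine, read 9.53 and 9.68 in L-Myc cells, 10.02 and 9.74 in C-Myc cells and 10.06 and 9.94 in N-Myc cells, against 9.15, 8.81 and 8.89 in preSC. Its differences were 0.65 ± 0.16, 0.93 ± 0.16 and 1.05 ± 0.16 (limma, adjusted p = 0.0373, 0.00899 and 0.00572), though a dimmer Dohh probe set, 1436402_at, differed by -0.11, 0.03 and -0.23 and was not called. Eif5a was higher by 0.61 in C-Myc and 0.63 in N-Myc cells (limma, adjusted p = 0.0200 and 0.0162), and its difference of 0.49 in L-Myc cells was not called (limma, adjusted p = 0.0550). In the fit to all probe sets that L-Myc difference was called (limma, adjusted p = 0.0414), as were the dimmer Eif5a probe set 1437859_x_at (1.27, 1.73 and 1.73) and the dimmer Eif5a2 probe set 1438256_at (0.80, 1.15 and 0.95) in all 3 groups, while the brightest Eif5a2 probe set was not. The list's median differences were 0.35, 0.53 and 0.49, beside -0.04, -0.05 and -0.03 over all genes.

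The methionine and S-adenosylmethionine list, which covers the supply of aminopropyl groups and the recycling of the by-product, had 14 of 18 genes tested. In L-Myc cells 3 were higher and 0 lower, in C-Myc cells 4 higher and 2 lower, and in N-Myc cells 2 higher and 1 lower, with medians of -0.08, 0.17 and 0.15. Ahcy, which hydrolyses S-adenosylhomocysteine, read 11.53 and 11.69 in L-Myc cells, 11.96 and 11.66 in C-Myc cells and 12.01 and 11.91 in N-Myc cells, against 10.58, 10.59 and 10.74 in preSC, differences of 0.97, 1.17 and 1.32 (limma, adjusted p = 0.00883, 0.00367 and 0.00253). Mri1, of the salvage pathway, was higher by 0.68, 0.68 and 0.53 (limma, adjusted p = 0.0152, 0.0104 and 0.0191). Mtap, which cleaves the methylthioadenosine left by Srm and Sms, was called on its brightest probe set in C-Myc cells only (0.77, limma, adjusted p = 0.00768), while its 3 dimmer probe sets were called in all 3 groups, at 1.08 to 2.73. On these 3 probe sets preSC read 5.55 to 6.45, against a 40th percentile of log2 5.284 to 5.344. In the list's counts, Mat1a, a methionine adenosyltransferase, is among the lower genes in C-Myc and N-Myc cells and Cth, of transsulfuration, among the higher ones in L-Myc and C-Myc cells, but each was above the 40th percentile on only a single side of the comparison. Mat1a read 3.75 and 5.08 in C-Myc cells and 3.91 and 4.35 in N-Myc cells, all under it, against 6.72, 6.46 and 6.96 in preSC. Cth read 5.13 and 6.03 in L-Myc and 6.76 and 6.23 in C-Myc cells, against 4.31, 3.62 and 4.51 in preSC, all under it. Without genes that no array of a group put above the percentile, 2 of 13 genes were higher and 0 lower in L-Myc cells, 3 and 1 of 12 in C-Myc cells, and 2 and 0 of 12 in N-Myc cells. That lower gene was Ahcyl1, on its brightest probe set (-0.45, limma, adjusted p = 0.0377). Its dimmer probe sets 1425576_at (2.37, 2.28 and 2.35) and 1426831_at (0.86, 0.72 and 0.84) were called higher in all 3 groups.

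Among 13 tested genes of ornithine and arginine supply, 0 were higher and 1 lower in L-Myc cells, 0 and 2 in C-Myc cells, and 1 and 3 in N-Myc cells, with medians of -0.42, -0.31 and -0.12. Arg2, the arginase that makes ornithine in mitochondria, read 8.66 and 9.41 in L-Myc cells, 11.38 and 8.97 in C-Myc cells and 11.23 and 11.36 in N-Myc cells, against 8.76, 8.80 and 8.002 in preSC. Only the N-Myc difference, 2.78 ± 0.64, was called (limma, adjusted p = 0.0194), and the C-Myc arrays stood far apart. Slc7a2, a transporter of arginine and ornithine, was lower, with differences of -1.24 in C-Myc and -1.81 in N-Myc cells (limma, adjusted p = 0.0289 and 0.00826), and Nos3, the endothelial nitric oxide synthase, was lower at -0.72 in L-Myc and -0.61 in C-Myc cells (limma, adjusted p = 0.0433 and 0.0484). Aldh18a1, which makes pyrroline-5-carboxylate on the way to ornithine, was lower in N-Myc cells on its brightest probe set (-0.59, limma, adjusted p = 0.0284), while its probe set 1415836_at was called higher in all 3 groups, at 1.51, 1.09 and 0.83. Slc25a15, the mitochondrial ornithine carrier, was likewise not called on its brightest probe set but higher in all 3 groups on the dimmer 1420966_at, at 1.71, 1.83 and 2.15 (limma, adjusted p = 0.00377, 0.00236 and 0.00128). Over the list's 9 dimmer probe sets tested, 3 were higher in L-Myc, 2 in C-Myc and 3 in N-Myc cells, and 0 were lower. Those called were probe sets of Aldh18a1 and Slc25a15 and, in N-Myc cells, of Arg2. Of all probe sets tested, 11.6%, 15.1% and 17.3% were called higher and 10.4%, 14.6% and 17.4% lower, in the same order of groups. Azin2 was the remaining gene called lower in N-Myc cells.

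Of 7 tested genes in the list of other polyamine enzymes and regulators, 0 were called in L-Myc cells, 1 was higher and 1 lower in C-Myc cells, and 1 was higher and 2 lower in N-Myc cells, with medians of -0.03, 0.20 and -0.01. Maoa, a monoamine oxidase, was higher by 1.53 in C-Myc and 1.41 in N-Myc cells (limma, adjusted p = 0.0238 and 0.0268). In those cells its dimmer probe set 1442676_at differed by 0.99 and 0.69 and was not called (limma, adjusted p = 0.0790 and 0.182). Oaz3, the antizyme known from testis, was lower in the same cells on its brightest probe set (-0.52 and -0.69, limma, adjusted p = 0.0360 and 0.0130), and its 2 other tested probe sets were not called. Azin2, an antizyme inhibitor that the ornithine list also holds, was lower in N-Myc cells (-0.68, limma, adjusted p = 0.0496). The dimmer Azin2 probe set 1439649_at was not called there (-0.24, limma, adjusted p = 0.208). Of 5 tested transport genes, 0 were called in L-Myc cells, 1 was lower in C-Myc and 2 in N-Myc cells, with medians of 0.08, -0.15 and 0.22. A dimmer Atp13a2 probe set, 1452747_at, was called higher in N-Myc cells (1.25, limma, adjusted p = 0.0116), while the brightest was not called. Gpc1, a heparan sulfate proteoglycan linked to polyamine uptake, was lower in C-Myc and N-Myc cells (-0.64 and -0.79, limma, adjusted p = 0.0416 and 0.0190), and Slc18b1, a vesicular polyamine transporter, is the other gene in the N-Myc count. Slc18b1 read 3.89 and 3.50 in N-Myc cells, both under the 40th percentile, against 5.91, 6.10 and 6.32 in preSC, so its N-Myc level is only bounded, and without it 1 of 4 genes was lower.

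**Figure D4:**
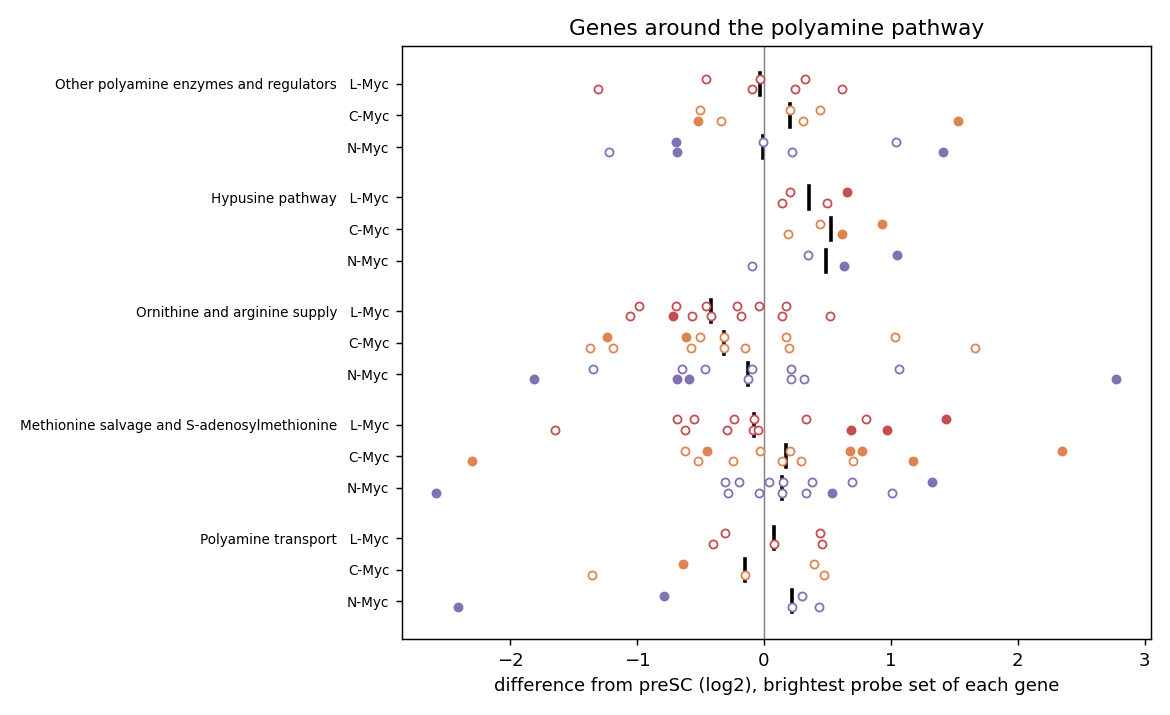
Log2 difference from preSC (x axis) of each tested gene in the 5 lists around the pathway (rows, split by MYC group), with the list median as a bar; filled points are called at an adjusted p under 0.05 in the fit to 12976 genes. The called hypusine genes all lie right of 0 and the called transport genes left of it; Mat1a, Cth and Slc18b1, named in the text, include groups below the 40th percentile.

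The genes whose levels ran most like those of the brightest Odc1 probe set over the 9 arrays were Utp4 (Pearson r = 0.997), Gadd45gip1 (0.997), Gnl3 (0.996), Pes1 (0.995) and Tomm22 (0.995). These arrays share their groups, so the values describe the pattern and carry no p. On the same measure, with only the brightest probe set of each gene, Oaz1 had r = -0.96, Azin1 -0.86, Oaz2 -0.83, Smox 0.70, Srm 0.66 and Sat1 0.22. For Azin1 and Oaz2 these were 1450714_at and 1426763_at, and other probe sets of both genes ran differently, as described above.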

How the data were processed

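The deposited values are log2 expression levels of 45101 probe sets on 9 Affymetrix Mouse430_2 arrays, made by the authors with RMA in the affy package under R 3.0.1, per the submitters' processing notes. Groups came from the sample titles. Control probe sets (64) were left out, and symbols came from the platform annotation: 34945 probe sets had 1 symbol, 932 several and 9211 none listed. The number of arrays limits the precision. limma 3.58.1 (R 4.3.3) was fitted to 4 group means over all 9 arrays (5 residual degrees of freedom, two-sided), after the filter at the 40th percentile (log2 5.284 to 5.344) and with Benjamini-Hochberg adjustment over all probe sets tested. A second fit used the brightest probe set of each gene. Scripts were tested on simulated data. The members, lists and rules were chosen with earlier results of these data known. Named were all members, list genes past the threshold against preSC (up to 4 per list and comparison, by size), the MYC genes, and the 5 genes most like Odc1. A few list genes, among them Ahcyl1 and Slc25a15, were also named for their other probe sets. Alternatives covered the filter, normalization, moderation, samples, a replicate block, gene summaries and each array left out.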

Additional observations from a re-analysis of the deposited data

How the results depend on the processing

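Apart from leaving out arrays, 296 differences of single probe sets from preSC kept their direction and side of the threshold, called or not. Under the same alternatives 11 lost a call, 5 gained one and 0 reversed. With each array left out in turn, 297 kept both, 49 lost a call, 5 gained one and 0 reversed. Only probe sets called in the main fit, 4 in L-Myc, 6 in C-Myc and 7 in N-Myc cells, could lose a call. Each of these had 9 fits with an array left out and 8 other alternatives, so the losses are a larger share of the calls than of all differences. The Odc1 calls on 1438761_a_at and 1437711_x_at in C-Myc and N-Myc cells held under every alternative run. With the brightest probe set of each gene, 0 of the 7 genes were called in L-Myc, 3 in C-Myc and 4 in N-Myc cells, and with the mean of probe sets 1, 2 and 2. Fitted to those groups alone, 669 of all probe sets were called between L-Myc and N-Myc cells and 0 between C-Myc and N-Myc cells. With arrays left out in turn, the polyamine probe sets called against preSC numbered 1 to 4 in L-Myc, 3 to 7 in C-Myc and 3 to 8 in N-Myc cells. Between groups they numbered 0 to 2 for L-Myc against C-Myc, 0 to 3 for L-Myc against N-Myc and 0 to 0 for C-Myc against N-Myc. All probe sets called ranged from 3348 to 8016, 5504 to 9153 and 3783 to 11576 against preSC, and from 0 to 1180, 0 to 2462 and 0 to 852 between groups, in the same order. The filter on the mean over all arrays was added after seeing the data. The cause of these changes was not tested.

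Replicate numbers did not pair all groups: deviations of same-numbered arrays correlated at 0.439 between L-Myc and C-Myc, 0.12 between L-Myc and N-Myc and 0.101 between C-Myc and N-Myc cells. With preSC they correlated at 0.609, 0.379 and 0.119 for number 1 but -0.64, -0.353 and -0.001 for number 2, in the order L-Myc, C-Myc and N-Myc. The replicate block was built from these numbers and left preSC 3 without a partner, so it does not stand for a known pairing. With this block 1 polyamine probe set was called in L-Myc cells, Azin1 1430984_at, and 0 of all probe sets between C-Myc and N-Myc cells. Under it Odc1 1427364_a_at in C-Myc cells (adjusted p = 0.0590), Oaz1 in C-Myc and N-Myc cells (0.0903 and 0.0757) and Oaz2 1426763_at in N-Myc cells (0.0541) were not called, by limma.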

Other observations

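The probe sets that name both Sms, spermine synthase, and its pseudogene were looked at after their values were seen. Against preSC, 1421052_a_at differed by 0.72 in L-Myc, 1.02 in C-Myc and 1.06 in N-Myc cells (limma, adjusted p = 0.0846, 0.0214 and 0.0163). Probe set 1428699_at differed by 1.66, 2.38 and 2.20 (limma, adjusted p = 0.0468, 0.0105 and 0.0124), and 1434190_at by 0.87, 1.19 and 1.11 (limma, adjusted p = 0.103, 0.0318 and 0.0365). All 9 differences were positive and 7 were called. Of all probe sets, 11.6%, 15.1% and 17.3% were called higher in these comparisons, which share the preSC arrays. On 1428699_at preSC read 5.43, 5.28 and 5.18, close to the 40th percentile (log2 5.284 to 5.344), so its differences rest on preSC levels near that limit. The signals of Sms and Sms-ps cannot be told apart. The probe set naming Oaz1 and Oaz1-ps differed by -0.16, -0.30 and -0.33 and was not called. Its arrays overlapped, with L-Myc 1 at 12.85 above preSC 2 at 12.78 and preSC 3 at 12.83.

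The genes most like Srm over the 9 arrays, a comparison also added after its values were seen, were Atoh8 (Pearson r = 0.978), Dhodh (0.975), Lmo1 (0.974), Maf (0.973) and Mapk11 (0.972), with Odc1 at 0.663. Maf, a transcription factor, read 10.59 and 5.89 in L-Myc cells, 11.42 and 5.49 in C-Myc cells and 11.24 and 11.32 in N-Myc cells, against 7.98, 8.63 and 3.85 in preSC. As with Srm, L-Myc 2, C-Myc 2 and preSC 3 were the low arrays of their groups.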
